A study of Prunus sibirica with 6 samples.

Results

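Abscisic acid (ABA) genes were compared between frosted flowers of a pair of Prunus sibirica clones. The 118 genes were those whose description in the deposited table names abscisic acid, 9-cis-epoxycarotenoid cleavage, abscisic aldehyde, a PYL receptor, an SnRK2 kinase or a protein phosphatase 2C, out of 31889 genes in all. Prunus sibirica, the Siberian apricot, is a spring-blooming tree of cold regions. The 3 libraries called strong came from clone 338, which has strong frost resistance, and the 3 called weak came from clone 28, which has weak frost resistance. RNA was taken from floral organs at bloom during natural frost of -4 °C in both clones. Each kind of resistance is represented by a single clone, so resistance cannot be told apart from any other difference between clones 338 and 28, and no unfrosted flowers were analysed here. Whether the 3 libraries of a clone are from different trees is not in the labels, and the p-values rest on the spread among them, which may be technical.

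Abscisic acid is the plant hormone of drought, cold and seed dormancy. It is made from epoxidised carotenoids, which the NCED dioxygenases cleave to xanthoxin, and an aldehyde oxidase completes the last step, while CYP707A 8'-hydroxylases start its breakdown. Bound hormone lets PYR/PYL receptors hold clade A protein phosphatases 2C (PP2C), which frees SnRK2 kinases from inhibition, and these then phosphorylate bZIP factors of the ABI5 and AREB/ABF kind on promoters with ABA-responsive elements. In flowers the same hormone takes part in dehydration responses, pollen maturation and the seed programme.

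Levels are the deposited FPKM, which count fragments by gene length, and are given in the order of libraries 1, 2 and 3. Their scaling between libraries is not described and does not follow the number of reads: a read on a gene of 1 kb was worth 0.0372 to 0.0514 FPKM in strong libraries, 0.0965 and 0.0921 FPKM in weak libraries 1 and 2 and 0.0481 FPKM in weak library 3. The FPKM summed over all genes ran from 464129 to 1217400, so every level and fold below depends on that scaling. Values on equal sums were followed for genes of the set that passed the test below and the 3 most abundant of each role. They are given where they change a call or direction, and the direction of other genes may turn too. Differences are strong minus weak on the log2(FPKM + 1) scale with the standard error of the fit, which understates the change of low genes. A gene passed the test when its limma p, adjusted by Benjamini-Hochberg over the 16462 genes that reached 1 FPKM in 3 or more libraries, was under 0.05. Reads on genes numbered 16367632 to 18866306 per library. Weak library 3 stood apart from weak libraries 1 and 2, whose log2 levels correlated at 0.99 with each other and at 0.85 and 0.86 with it. The summed level of 125 genes described as pollen or anther genes was 12165, 18468 and 9380 FPKM in strong flowers and 52784, 46583 and 16636 FPKM in weak flowers. The mean log2(FPKM + 1) of the 70 tested ones differed less, at 5.14, 5.45 and 4.85 in strong and 5.86, 5.73 and 5.46 in weak flowers. Summed photosynthesis genes (61 genes) ran the other way, at 5866 to 6823 FPKM in strong and 3957 to 4272 FPKM in weak flowers. The 4 S-RNase genes, pistil markers, summed to at most 0.164 FPKM in strong and to 4.05 to 6.75 FPKM in weak flowers. Only 1 of the 4 was tested, and 2, 2 and 3 of them had no read in weak libraries 1, 2 and 3. That sum thus rests on very few genes and is no measure of pistil content. Less tissue of a kind and less RNA per cell cannot be told apart in whole flowers, and the part of these differences in the results was not tested.

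Of the 118 genes, 93 could be tested, and 18 passed, 13 as higher in the strong clone and 5 as lower. That is 19.4% of those tested, against 15.3% of all genes (7.53% higher and 7.78% lower). The genes that were higher in strong flowers included both genes named PYL4, the aldehyde oxidase, the phosphatase named for ABI1 and 3 of the bZIP factors, while an 8'-hydroxylase and the kinase named SAPK1 were lower. The median difference over the 93 genes was 0.04, against 0.05 over all genes, and 49 differences were positive. For 39 of the 93 (41.9%) the strong and weak libraries had no overlap, against 45.4% of all genes.

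The genes were grouped by role, and no difference between roles was tested. The 43 genes of synthesis, breakdown, receptors, ABA-named phosphatases, SnRK2 kinases and ABI factors gave 34 that were tested, and 8 passed as higher and 3 as lower (32.4%), with a median difference of 0.27. The remaining 75, nearly all phosphatases 2C of other branches, gave 59 that were tested, and 5 passed as higher and 2 as lower (11.9%), with a median difference of -0.14. The roles were read from the wording of the descriptions, and a phosphatase whose description does not name ABA may still act in the pathway.

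**Figure D1:**
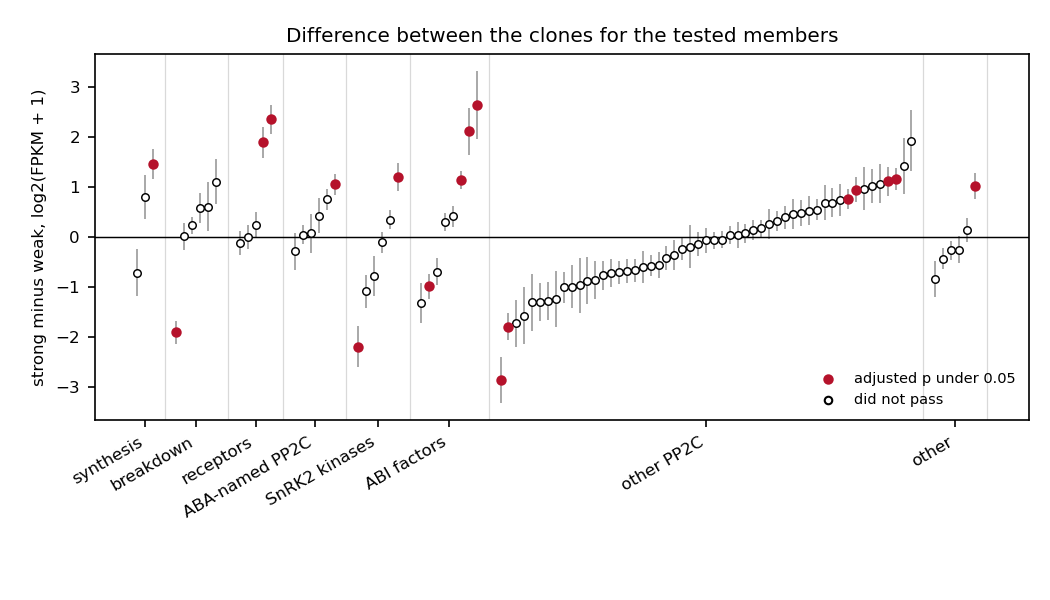
Difference between the clones (strong minus weak, log2(FPKM + 1) scale, vertical axis) for each of the 93 tested genes, sorted within its role; bars are standard errors of the fit and filled points passed the test. Filled points stand on both sides of 0 among kinases, factors and other phosphatases, and above it for the receptors.

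The calls rest on few libraries. With limma, leaving out strong library 1 left 0 genes of the set past the threshold, although 26 had an unadjusted p under 0.05, and leaving out any other library but weak library 3 left 1 to 4. These fits passed 0% to 4.30% of the set and 1.01% to 3.71% of all genes, so the loss was shared by all genes. Without weak library 3, 64 of the 93 passed (28 higher and 36 lower), against 73.4% of all genes. The PYL4 gene PARG19136 passed in 5 of these 6 fits and the 8'-hydroxylase PARG00651 in 4, the phosphatases PARG02314 and PARG11056 passed without weak library 1 or 3, and the other 14 passed only without weak library 3. All 18 kept their direction in every fit that tested them. With the FPKM of each library brought to an equal sum, the median of all genes moved to 0.76 and 15 of the set were higher and 3 lower.

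Of 6 genes of hormone synthesis, 3 were tested and 1, that of the last step, passed on the deposited scaling (15.3% of all genes passed). The gene described as abscisic-aldehyde oxidase, PARG28557, which turns abscisic aldehyde into the hormone, had 8.65, 12.5 and 7.46 FPKM in strong and 1.88, 2.63 and 4.05 FPKM in weak flowers. Every strong library lay above every weak library. The mean was 3.34-fold higher in strong flowers (9.53 ± 2.62 against 2.85 ± 1.10 FPKM, SD, n = 3), a difference of 1.46 ± 0.30 with a limma adjusted p of 0.0283.

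The dioxygenases, the rate-limiting enzymes of the pathway, did not pass on the deposited scaling. The gene most like NCED1 of bean, PARG11107, had 26.0, 24.0 and 38.6 FPKM in strong and 23.4, 22.3 and 7.78 FPKM in weak flowers. Its groups just missed overlapping, and weak library 3 was the lowest of all 6 (difference 0.81 ± 0.44, limma adjusted p = 0.180). On equal sums of FPKM it passed as higher (1.62, limma adjusted p = 0.026). The NCED3-like gene PARG11892, named for the drought-induced enzyme of Arabidopsis, had 7.79, 14.9 and 5.93 FPKM in strong and 21.2, 20.6 and 7.88 FPKM in weak flowers. Here weak library 3 lay among the strong libraries, and the difference was -0.71 ± 0.47 (limma adjusted p = 0.250). On equal sums this difference came to 0.058. Both genes named NCED6, PARG03953 and PARG29801, had no read in any library, where 3 reads would be 0.058 to 0.161 FPKM. A gene named molybdenum cofactor sulfurase, PARG23725, reached 0.199 FPKM at most and was not tested.

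In hormone breakdown, a single gene passed. Of 8 genes named ABA 8'-hydroxylase, which add the hydroxyl group that leads to phaseic acid, 6 were tested, 1 was lower and 0 higher in the strong clone by limma, with 2 of the 6 under an unadjusted p of 0.05. That is 16.7% of the 6, near the 15.3% of all genes. The one that passed was PARG00651, named 8'-hydroxylase 2, on linkage group 1 (4305904 to 4311559). It had 1.14, 1.29 and 1.09 FPKM in strong and 6.93, 5.57 and 9.41 FPKM in weak flowers. All weak libraries lay well above the strong ones, and weak library 3 was the highest. The weak mean was 6.23-fold above the strong mean (7.31 ± 1.95 against 1.17 ± 0.103 FPKM, SD, n = 3), a difference of -1.91 ± 0.23 with a limma adjusted p of 0.00824. On equal sums of FPKM it missed the threshold (-1.35, limma adjusted p = 0.067), and 1 other hydroxylase passed as higher.

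The more abundant hydroxylases did not pass. PARG26928, named 8'-hydroxylase 4 and the most abundant of them, had 18.0, 17.3 and 19.0 FPKM in strong and 13.7, 14.7 and 17.5 FPKM in weak flowers. The groups overlapped at their edges (difference 0.23 ± 0.18, limma adjusted p = 0.317). PARG22751, named 8'-hydroxylase 1, had 5.70, 5.40 and 11.2 FPKM in strong and 2.37, 9.62 and 3.11 FPKM in weak flowers, with a single high library in each clone. The other 3 tested copies had differences of 0.02 to 1.11, and none passed. PARG00651 thus gave 2.53% to 3.80% of the summed hydroxylase level in strong flowers and 14.8% to 27.4% in weak flowers, while the sum itself overlapped, at 33.9 to 43.1 FPKM in strong and 28.3 to 37.8 FPKM in weak flowers. PARG22289, named 8'-hydroxylase 3, had 21 reads over the strong and 1 over the weak libraries, too few for the test.

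The receptors divided into genes that differed between the clones and genes that did not pass. Of 6 genes named for the PYL family, 5 were tested and 2 were higher in the strong clone (7.53% of all genes were). Both are named PYL4, in Arabidopsis one of the monomeric receptors. PARG19136, on linkage group 5 (22998661 to 22999895), had 29.9, 24.7 and 41.6 FPKM in strong and 6.34, 3.60 and 6.36 FPKM in weak flowers. The lowest strong library lay far above the highest weak one. Its mean was 5.91-fold higher in strong flowers (32.1 ± 8.68 against 5.43 ± 1.59 FPKM, SD, n = 3), a difference of 2.36 ± 0.29 with a limma adjusted p of 0.00833.

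The other PYL4 gene, PARG29278, lies on a contig and was the most abundant receptor in strong flowers. It had 143, 177 and 172 FPKM in strong and 42.8, 29.4 and 63.2 FPKM in weak flowers. The groups did not overlap, and weak library 3 was the highest of the weak ones. The mean was 3.64-fold higher in strong flowers (164 ± 18.4 against 45.2 ± 17.0 FPKM, SD, n = 3), a difference of 1.90 ± 0.31 with a limma adjusted p of 0.0159. The genes share a description, and the table does not show how reads common to both were assigned.

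PYL9, a receptor that in Arabidopsis is monomeric as well, was the other abundant receptor and showed no such gap on the deposited scaling. Its gene PARG18458 had 51.4, 70.4 and 58.2 FPKM in strong and 63.8, 70.4 and 46.0 FPKM in weak flowers. The ranges lay over each other, and the difference was 0.01 ± 0.24 (limma adjusted p = 0.981). Leaving out strong library 2 or weak library 3 turned its sign, to -0.11 and -0.17. On equal sums of FPKM its difference was 0.83, just short of the threshold (limma adjusted p = 0.0505). The median of all genes was 0.76 there. With quantile scaling the PYL9 difference was 0.42 (limma adjusted p = 0.110). PYL1 (PARG23130) and PYL12 (PARG12074) did not pass either, with differences of 0.24 and -0.12, and PYL2 (PARG07602) reached 1.04 FPKM at most and was not tested.

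Summed over the 6 receptor genes, the level was 235, 283 and 283 FPKM in strong and 121, 115 and 123 FPKM in weak flowers. The weak libraries agreed within 4.06 FPKM (SD), and weak library 3 lay beside weak libraries 1 and 2 on the deposited scaling. The PYL4 pair supplied 71.3% to 75.6% of the receptor sum in strong flowers and 40.5%, 28.7% and 56.7% in weak flowers.

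**Figure D2:**
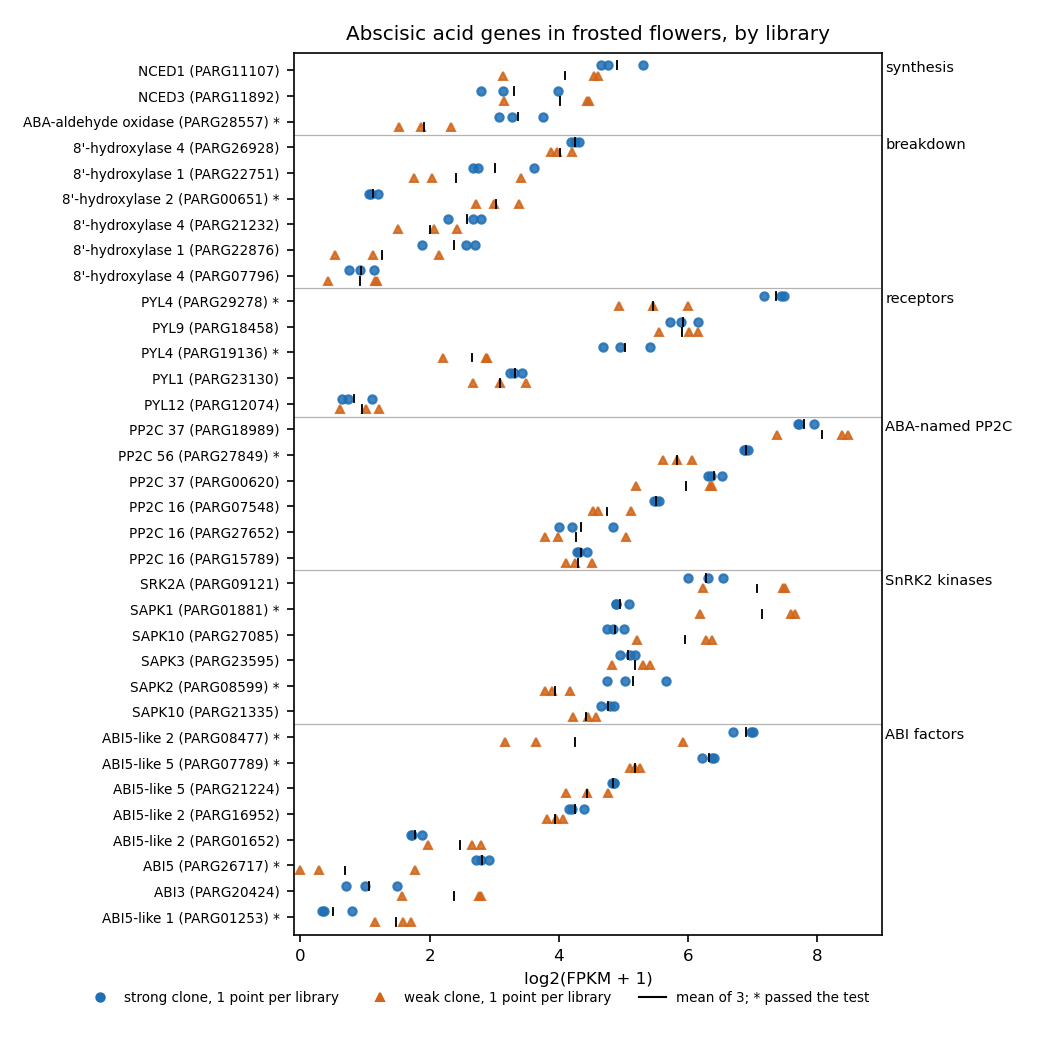
Level of each tested gene of the 6 core roles on the log2(FPKM + 1) scale (horizontal axis), with circles for the 3 strong and triangles for the 3 weak libraries, short bars for the mean of 3 and stars for genes that passed the test. Both PYL4 genes have all circles to the right of all triangles, the 8'-hydroxylase PARG00651 the reverse, and PYL9 has them mixed.

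The ABA-named phosphatases, which hold the kinases inactive when no hormone is bound, gave 1 call among 6 tested of 7 genes (16.7%, against 15.3% of all genes), and 2 on equal sums and 3 with quantile scaling, all as higher. The gene that passed was PARG27849, named PP2C 56, the phosphatase known in Arabidopsis as ABI1, with 116, 117 and 120 FPKM in strong and 55.7, 65.8 and 47.8 FPKM in weak flowers. The strong libraries were almost equal and all lay above the weak ones. The mean was 2.09-fold higher in strong flowers (118 ± 2.20 against 56.4 ± 9.04 FPKM, SD, n = 3), a difference of 1.06 ± 0.21 with a limma adjusted p of 0.0253.

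The most abundant member of the role was PARG18989, named PP2C 37 (PP2CA or AHG3 in Arabidopsis). It had 210, 246 and 206 FPKM in strong and 355, 332 and 164 FPKM in weak flowers. Weak libraries 1 and 2 lay above the strong range and weak library 3 below it (difference -0.29 ± 0.37, limma adjusted p = 0.544). Its direction turned with the scaling, to 0.55 on equal sums and 0.48 with quantile scaling. A further PP2C 37 gene, PARG00620, had 78.5, 90.5 and 81.2 FPKM in strong and 81.6, 79.8 and 35.6 FPKM in weak flowers, where weak library 3 alone was low (difference 0.43). It passed as higher on equal sums (1.26, limma adjusted p = 0.0085) and with quantile scaling (0.90, limma adjusted p = 0.038). PARG07548, named PP2C 16 (HAB1 in Arabidopsis), had 44.3, 43.2 and 45.8 FPKM in strong and 22.0, 23.3 and 33.7 FPKM in weak flowers. Its groups did not overlap, but its limma adjusted p of 0.0588 missed the threshold (difference 0.76 ± 0.22). The other PP2C 16 genes, PARG27652 and PARG15789, differed by 0.08 and 0.05. PARG19396, named PP2C 75 (AHG1 in Arabidopsis), had no read, where 3 reads would be 0.068 to 0.176 FPKM.

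Among the SnRK2 kinases, genes differed in opposite directions. Of 7 genes, 6 were tested, and 1 passed in each direction (7.53% of all genes passed as higher and 7.78% as lower). Most carry SAPK names, from rice, where all SAPK kinases respond to osmotic stress and some of them, SAPK10 included, also to the hormone. PARG01881, named SAPK1, had 28.5, 28.5 and 32.8 FPKM in strong and 201, 191 and 71.8 FPKM in weak flowers. The strong libraries lay close together, and weak library 3 stood between them and the other weak libraries. The weak mean was 5.16-fold above the strong mean (155 ± 71.9 against 29.9 ± 2.47 FPKM, SD, n = 3), a difference of -2.19 ± 0.41 with a limma adjusted p of 0.0233.

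PARG08599, named SAPK2, had 31.6, 25.8 and 49.5 FPKM in strong and 12.7, 16.9 and 13.8 FPKM in weak flowers. All strong libraries lay above all weak ones. The mean was 2.46-fold higher in strong flowers (35.6 ± 12.4 against 14.5 ± 2.19 FPKM, SD, n = 3), a difference of 1.20 ± 0.28 with a limma adjusted p of 0.0388. A second SAPK2 gene, PARG08600, begins 1.18 kb from it on linkage group 2 and was too low to test, and how shared reads were divided between these neighbours is not shown.

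The other abundant kinases were higher in weak libraries 1 and 2 but did not pass. PARG09121, named SRK2A after the Arabidopsis kinase, had 78.2, 92.4 and 62.7 FPKM in strong and 180, 177 and 73.7 FPKM in weak flowers. Weak library 3 fell within the strong range (difference -0.78 ± 0.40, limma adjusted p = 0.160), and on equal sums the difference was 0.045. PARG27085, named SAPK10, had 27.6, 31.0 and 25.8 FPKM in strong and 81.5, 76.4 and 35.9 FPKM in weak flowers. Its groups did not overlap, and its limma adjusted p was 0.0668 (difference -1.09 ± 0.34). The second SAPK10 gene, PARG21335, differed by 0.35 ± 0.18 and SAPK3 (PARG23595) by -0.11, and neither passed.

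Of 9 ABI transcription factors, 8 were tested, and 3 passed as higher and 1 as lower (15.3% of all genes passed). On the deposited scaling the libraries of the clones had no overlap in any of the 8, passed or not. They had none in 45.4% of all genes. In strong flowers 5 of the 8 lay above and 3 below, and overlap on equal sums was not followed. PARG07789, named ABI5-like 5 (AREB1 or ABF2 in Arabidopsis, an activator of drought genes), lies on linkage group 2 (32345700 to 32348843). It had 73.2, 81.7 and 83.2 FPKM in strong and 37.4, 35.2 and 33.1 FPKM in weak flowers. Both clones were tight, and weak library 3 was no closer to the strong libraries than the other weak ones. The mean was 2.25-fold higher in strong flowers (79.4 ± 5.35 against 35.2 ± 2.12 FPKM, SD, n = 3), a difference of 1.15 ± 0.18 with a limma adjusted p of 0.0137.

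PARG08477, named ABI5-like 2 (AREB3 in Arabidopsis), had 125, 102 and 127 FPKM in strong and 7.98, 11.5 and 59.7 FPKM in weak flowers. The groups did not overlap, but weak library 3 stood about midway between the other weak libraries and the strong ones on the FPKM scale. The mean was 4.48-fold higher in strong flowers (118 ± 14.0 against 26.4 ± 28.9 FPKM, SD, n = 3), a difference of 2.65 ± 0.69 with a limma adjusted p of 0.0488, and on equal sums it missed the threshold (3.43, limma adjusted p = 0.053). In strong flowers this gene supplied 42.7% to 49.4% of the summed level of the factors, in weak libraries 1 and 2 it supplied 8.65% and 11.3%, and in weak library 3 it supplied 44.8%.

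The gene named ABI5 itself, PARG26717, which in Arabidopsis holds back germination, was low in both clones. It had 5.55, 5.96 and 6.52 FPKM in strong and 0, 0.225 and 2.42 FPKM in weak flowers. The strong libraries were even and the weak ones uneven, without overlap (6.01 ± 0.488 against 0.881 ± 1.34 FPKM, SD, n = 3). The difference was 2.12 ± 0.46 with a limma adjusted p of 0.0338.

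The factor that passed in the other direction was PARG01253, named ABI5-like 1 (DPBF2 in Arabidopsis). It had 0.260, 0.731 and 0.286 FPKM in strong and 2.0, 2.29 and 1.22 FPKM in weak flowers. The weak mean was 4.32-fold above the strong mean (1.84 ± 0.551 against 0.426 ± 0.265 FPKM, SD, n = 3), a difference of -0.99 ± 0.24 with a limma adjusted p of 0.0432, and on equal sums it missed the threshold (-0.63, limma adjusted p = 0.069). ABI3, the B3 factor of seed maturation (PARG20424), had 0.998, 1.81 and 0.629 FPKM in strong and 5.94, 5.82 and 1.99 FPKM in weak flowers. These groups did not overlap either, but the gene did not pass (difference -1.32 ± 0.40, limma adjusted p = 0.0646). The second ABI5-like 5 gene, PARG21224, differed by 0.41 ± 0.22 and did not pass, but did on equal sums (1.22, limma adjusted p = 0.028). ABI4 (PARG19106) had no read in any library.

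Summed by role in deposited FPKM, the receptors and the factors separated the clones and the kinases did so less. The factors came to 253, 239 and 267 FPKM in strong and 92.2, 101 and 133 FPKM in weak flowers. The kinases came to 224, 236 and 233 FPKM in strong and 538, 522 and 244 FPKM in weak flowers, so that weak library 3 stood near the strong libraries. The ABA-named phosphatases came to 485, 545 and 487 FPKM in strong and 545, 554 and 313 FPKM in weak flowers, which overlap. As a share of all FPKM in a library, the kinases made up 0.0447%, 0.0399% and 0.0502% in strong and 0.0442%, 0.0472% and 0.0421% in weak flowers, and no longer separated. On that scale the receptors made up 0.0468% to 0.0610% in strong and 0.00997% to 0.0211% in weak flowers. The factors made up 0.0405% to 0.0576% in strong and 0.00757% to 0.0230% in weak flowers, and both these roles still separated the clones. The ABA-named phosphatases, which overlapped in FPKM, separated here, at 0.0922% to 0.105% in strong and 0.0448% to 0.0539% in weak flowers. Synthesis genes did so too, at 0.00849% to 0.0112% and 0.00341% to 0.00411%, while breakdown genes overlapped. All genes of the set summed to 0.484% to 0.566% and 0.303% to 0.354%, so separation was not particular to receptors and factors.

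Ratios within a library do not depend on how libraries are scaled to each other. The receptor sum over the sum of the ABA-named phosphatases was 0.484, 0.520 and 0.582 in strong and 0.223, 0.208 and 0.393 in weak flowers. The kinase sum over the same phosphatases was 0.462, 0.433 and 0.479 in strong and 0.986, 0.941 and 0.782 in weak flowers. Neither ratio overlapped between the clones. Of the kinase sum, SAPK1 (PARG01881) alone supplied 12.1% to 14.1% in strong and 29.4% to 37.4% in weak flowers. For the factors the ratio was 0.522, 0.439 and 0.549 in strong and 0.169, 0.183 and 0.427 in weak flowers, with weak library 3 close under the lowest strong library. These are levels of RNA, and hormone, protein and phosphorylation were not measured here.

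**Figure D3:**
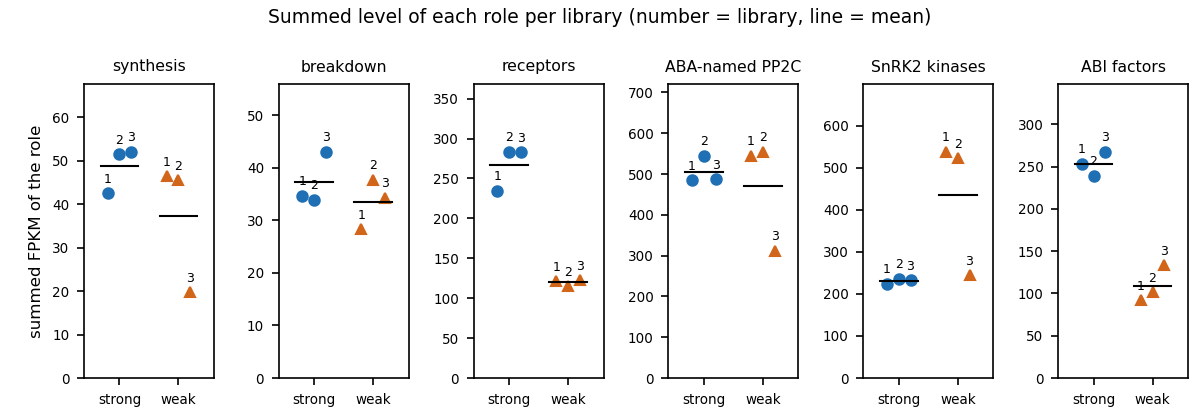
Summed FPKM (vertical axes, each from 0) of the 6 core roles in each library, numbered 1 to 3, for strong (circles) and weak (triangles) flowers, with a line at the mean of 3. Receptors and ABI factors lie apart with weak library 3 among the weak, while kinases have weak library 3 at 244 FPKM beside the strong libraries at 224 to 236 FPKM.

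Phosphatases 2C of other branches made up 68 genes, of which 53 were tested, 4 were higher and 2 lower (7.53% and 7.78% of all genes were). The lower genes were PARG02314 and PARG11056. PARG02314, named PP2C 60, had 1.14, 1.54 and 0.823 FPKM in strong and 27.4, 16.2 and 6.83 FPKM in weak flowers. The weak libraries were spread widely but all lay above the strong ones. The weak mean was 14.4-fold above the strong mean (16.8 ± 10.3 against 1.17 ± 0.360 FPKM, SD, n = 3), a difference of -2.86 ± 0.47 with a limma adjusted p of 0.0160.

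PARG11056, named PP2C 27, had 0.014, 0.016 and 0 FPKM in strong and 3.73, 2.63 and 1.49 FPKM in weak flowers. The strong libraries held 2 reads in all and the weak ones 310. The weak level was 255 times the strong one, with an exact 95% counting interval of 70.0 to 2114 that covers counting error only, and the difference was -1.79 ± 0.27 (limma adjusted p = 0.0128). The second PP2C 27 gene, PARG20683, was at 21.4 to 25.2 FPKM in strong and 19.5 to 21.6 FPKM in weak flowers, which overlap.

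Among the higher ones, PARG16174 (PP2C 49) had 62.5, 70.2 and 88.9 FPKM in strong and 27.3, 35.9 and 33.4 FPKM in weak flowers. The groups lay far apart (difference 1.17 ± 0.22, limma adjusted p = 0.0234). PARG21100 (PP2C 63) had 39.1, 39.2 and 64.3 FPKM in strong and 22.8, 24.9 and 22.6 FPKM in weak flowers (difference 0.95 ± 0.25, limma adjusted p = 0.0482). PARG19660, named PP2C 57, which in Arabidopsis dephosphorylates the light-harvesting antenna of chloroplasts, had 7.81, 9.62 and 9.69 FPKM in strong and 2.18, 4.05 and 5.11 FPKM in weak flowers. It was 2.39-fold higher in strong flowers (difference 1.12 ± 0.29, limma adjusted p = 0.0483), beside a summed photosynthesis level that was also higher there. PARG26470 (PP2C 68) had 16.9, 14.2 and 17.1 FPKM in strong and 8.10, 8.37 and 10.7 FPKM in weak flowers (difference 0.77 ± 0.20, limma adjusted p = 0.0476), and on equal sums it missed the threshold (1.53, limma adjusted p = 0.052). In all 4 genes each strong library lay above each weak one.

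The 3 most abundant phosphatases of these branches did not pass on the deposited scaling. PARG18805, named PP2C 38, which in Arabidopsis restrains a kinase of immune signalling, had 132, 204 and 87.3 FPKM in strong and 520, 460 and 150 FPKM in weak flowers. PARG03698, named like PP2C 44, had 43.2, 71.5 and 25.6 FPKM in strong and 185, 197 and 59.6 FPKM in weak flowers. In both, weak library 3 lay within the strong range, the pattern across libraries of the summed pollen genes, and the differences were -1.30 ± 0.57 and -1.57 ± 0.57. PARG00509, named PP2C 25 (AP2C1 in Arabidopsis, which acts on MAP kinases), had 97.8, 106 and 140 FPKM in strong and 53.8, 84.8 and 36.9 FPKM in weak flowers. Its groups did not overlap, and its limma adjusted p was 0.0749 (difference 1.02 ± 0.34), but it passed as higher on equal sums (1.85, limma adjusted p = 0.014) and with quantile scaling (1.51, limma adjusted p = 0.022). The other branches gave 45.0% to 48.0% of the level of all 118 genes in strong flowers and 53.7% to 59.5% in weak flowers.

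The last 7 genes carry the search words for other reasons, such as a phosphatase domain or an alternative name. Of these, 6 were tested and 1 passed (16.7%, against 15.3% of all genes). PARG10059, subunit 1 of the nuclear cap-binding complex, whose loss makes Arabidopsis hypersensitive to the hormone, had 19.9, 18.4 and 23.5 FPKM in strong and 7.80, 8.05 and 13.9 FPKM in weak flowers. Every strong library lay above every weak one. The mean was 2.07-fold higher in strong flowers (20.6 ± 2.61 against 9.93 ± 3.47 FPKM, SD, n = 3), a difference of 1.02 ± 0.26 with a limma adjusted p of 0.0482, and on equal sums it missed the threshold (1.78, limma adjusted p = 0.055). A gene without a protein name, known by an FHA and a phosphatase domain, differed by -0.84 ± 0.36 and did not pass. The gene of a riboflavin enzyme, PARG03290, differed by -0.43 ± 0.21 without passing, and by 0.37 on equal sums.

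Weak library 3 did not move alike in all 18 genes that passed. Its place was computed for each gene on the log2(FPKM + 1) scale, with 0 at the mean of weak libraries 1 and 2 and 1 at the mean of the strong libraries. The median place was 0.38 over the 18 genes and 0.41 over all 2520 genes that passed. In 12 of the 18 it lay beyond both other weak libraries towards the strong ones, against 2044 of the 2520. It stood farthest towards the strong libraries in ABI5-like 2 (PARG08477, 0.72) and ABI5 (PARG26717). It stood on the far side of 0 in the ABI1-named phosphatase (PARG27849, -0.35), the 8'-hydroxylase (PARG00651, -0.30), ABI5-like 5 (PARG07789, -0.11), PP2C 63 (PARG21100, -0.08) and SAPK2 (PARG08599, -0.07). These places are on the deposited scaling, on which 1 read was worth less FPKM in weak library 3 than in the other weak libraries, and the part of that scaling or of pollen content in them was not tested.

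**Figure D4:**
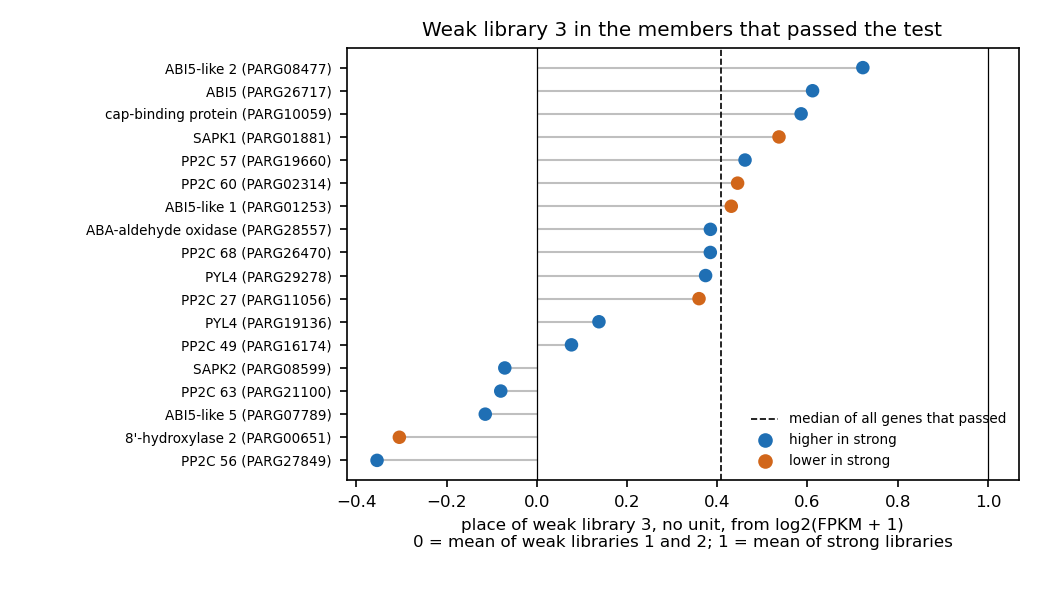
Place of weak library 3 (horizontal axis, without unit, from log2(FPKM + 1) levels) between the mean of weak libraries 1 and 2 at 0 and the mean of the strong libraries at 1, for each of the 18 genes that passed, coloured by direction. The dashed line is the median of all genes that passed, 0.41; the genes run from -0.35 for PP2C 56 to 0.72 for ABI5-like 2.

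A further 30 genes of the same pathway carry other names, among them epoxidases, cofactor sulfurases, transporters and ABI5-binding proteins. Of these 16 were tested, and limma called 0 as higher and 2 as lower in strong flowers (12.5%, against 15.3% of all genes), with 6 under an unadjusted p of 0.05. Without weak library 3 there were 5 higher and 7 lower, and on equal sums 2 higher and 0 lower. In those fits 73.4% and 14.1% of all genes passed. The lower ones were the transporter NPF4.6 and a cofactor sulfurase. NPF4.6 (PARG06267), which imports the hormone in Arabidopsis, had 6.06, 9.02 and 6.90 FPKM in strong and 39.3, 42.1 and 12.7 FPKM in weak flowers. Its groups did not overlap (difference -1.81 ± 0.46, limma adjusted p = 0.0476). A molybdenum cofactor sulfurase, PARG07374, whose kind of enzyme activates the aldehyde oxidase, had 4.76, 4.82 and 4.17 FPKM in strong and 14.5, 15.8 and 7.70 FPKM in weak flowers (difference -1.24 ± 0.29, limma adjusted p = 0.0401). It was lower where the aldehyde oxidase PARG28557 was higher, but on equal sums it no longer passed as lower. A further sulfurase gene, PARG11239, was the most abundant of its kind, at 5.46 to 7.40 FPKM in strong and 9.35 to 19.5 FPKM in weak flowers, and did not pass (limma adjusted p = 0.0549). Another tested sulfurase gene, PARG27045, went the other way, at 4.13, 4.23 and 4.24 FPKM in strong and 1.96, 2.70 and 3.38 FPKM in weak flowers. Its groups did not overlap, and it did not pass (difference 0.52 ± 0.22, limma adjusted p = 0.111).

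Upstream of the dioxygenases, zeaxanthin epoxidase (PARG26923) had 20.6, 27.5 and 21.1 FPKM in strong and 38.2, 46.2 and 31.1 FPKM in weak flowers, without overlap. It did not pass (difference -0.71 ± 0.23, limma adjusted p = 0.0695). The gene of neoxanthin synthesis named ABA DEFICIENT 4 (PARG23588) differed by 0.42 ± 0.28 and xanthoxin dehydrogenase (PARG16572) by 0.65 ± 0.27. Of the genes that restrain ABI5 in Arabidopsis, the AFP protein PARG13243 differed by -0.16 ± 0.29 and the ubiquitin ligase KEG (PARG15345) by -0.26 ± 0.32. None of these 4 passed. Their directions on equal sums, and that of the epoxidase, were not followed. The glucosyltransferase that stores the hormone (PARG21194) and its exporter ABCG25 (PARG21916) stayed under 1 FPKM in every library and were not tested.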

How the data were processed

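RNA sequencing of 6 libraries, 3 per clone, was analysed from the authors' deposited table of FPKM values per gene, with gene positions, lengths and descriptions. CASAVA, RSEM and Bowtie2 were used, per the submitters' processing notes. Their versions are not stated there, and the genome build is not given in the sources used here. Libraries were grouped by the clone named in the labels. Whole reads per gene were computed from FPKM and gene length (100% of values whole within 0.01 read) and used only to describe depth. Genes that reached 1 FPKM in 3 or more libraries were kept, and log2(FPKM + 1) was tested with limma (version 3.58.1, under R 4.3.3), lmFit and eBayes with trend, two-sided, Benjamini-Hochberg over all genes. The fit was tested on simulated data. All pairs of libraries differed by more than sampling noise. Named genes are those that passed, the 3 most abundant of each role, and the most abundant other pathway genes of each kind; others named were chosen after their values were seen. The genes, lists and tests were chosen with earlier results of these data known. Alternatives changed the pseudocount, filter, scaling, variance trend, replicate block and libraries used. No reference sequences were used here.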

Additional observations from a re-analysis of the deposited data

How the results depend on the processing

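As reported, 13 of 93 tested genes passed as higher in strong flowers and 5 as lower. Higher calls were 7 with log2(FPKM + 0.1), and 8 both without a filter and with at least 5 FPKM. Without a filter 108 genes of the set were tested, and with at least 5 FPKM 74 were. Lower calls were 3 with at least 5 FPKM, 3 on equal sums of FPKM and 8 with quantile scaling. Of the set, 11.8%, 12.96% and 14.9% passed with log2(FPKM + 0.1), without a filter and with at least 5 FPKM. The share of all genes fell too, from 15.3% to 11.5%, 9.85% and 10.05%. On equal sums 19.4% of the set and 14.1% of all genes passed, and with quantile scaling 25.8% and 19.4%. On equal sums the median difference of the set was 0.76, as it was for all genes. Directions were followed only for genes that passed and the 3 most abundant of each role. Among these, differences turned sign on equal sums for PARG18989 (0.55), PARG09121 (0.045), PARG03290 (0.37) and PARG11892 (0.058). With quantile scaling the difference of PARG18989 (0.48) turned. Other genes with small negative differences may turn on equal sums too. Leaving out 1 library gave 0 to 28 higher and 0 to 36 lower, while 1.01% to 73.4% of all genes passed. The difference of PARG18458 ran from -0.17 to 0.13 in these fits and was also negative without strong library 2 (-0.11). With the replicate number as a block, 17 were higher and 17 lower, and 39.1% of all genes passed. Whether the numbers pair the libraries is not in the labels. The deviations of same-numbered libraries from their clone means correlated at -0.24, 0.59 and 0.61, and strong library 2 correlated better with weak library 1 (0.62). With 3 libraries per clone such deviations depend on each other, so these correlations cannot decide it. The cause of these changes was not tested. For a gene of 1 kb, 1 read was worth 0.0372 to 0.0965 FPKM, so genes under 1 FPKM rest on few reads.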

Other observations

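Of the 5 genes of the set that were lower in the strong clone, 4 lie on linkage group 1 (PARG00651, PARG01253, PARG01881 and PARG02314), where 0 of the 13 tested genes of the set passed as higher by limma and 2 were higher with an unadjusted p under 0.05. Over all genes, linkage group 1 gave 155 higher and 135 lower of 1940 tested (7.99% and 6.96%). The 13 higher genes were spread over 6 other linkage groups and contigs. This was chosen after the values were seen and was not tested.

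PARG07789, the ABI5-like 5 gene that was higher in the strong clone, lies 36.4 kb from the 8'-hydroxylase PARG07796, which did not differ between the clones beyond its error (0.02). Several names were shared by genes with unlike levels. PP2C 55 named 11 genes, of which 4 were tested and 2 had no read, and PP2C 60 named 5 tested genes, of which PARG02314 alone passed.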
